A study of Mus musculus with 6 samples.

Results

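Wnt ligands, the enzyme and carrier that release them, their receptors, the R-spondins and the secreted antagonists were followed in whole digit tips of mice in which Ctnnb1 was deleted in keratin 14-expressing epithelium. The genes were 44, taken as exact gene symbols of the array annotation, out of 20793 genes tested. They comprised 16 Wnt ligands, 2 secretion genes, 9 Frizzled receptors, 2 co-receptors, 4 R-spondins, 6 secreted proteins that bind Wnts and 5 genes of the Dickkopf and Kremen group. The tested animals were K14-CreER;Ctnnb1 cKO mice (cKO below, 3 arrays) and the comparison animals were wild-type mice (control, 3 arrays). All were 8 weeks old, and the digits were labelled intact. K14-CreER is a Cre recombinase that needs an inducer and is driven by the keratin 14 promoter, active in the basal cells of skin and nail epithelium. Ctnnb1 encodes beta-catenin. The inducer schedule, the genotype of the controls beyond wild type and whether each array came from a single animal are not stated in the labels. The p-values cover the spread among these labelled biological replicates, which may in part be technical.

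Wnt proteins are lipid-modified signals that reach neighbouring cells by binding a Frizzled receptor together with the co-receptor LRP5 or LRP6. In the canonical branch this stabilises beta-catenin, which enters the nucleus and switches on target genes with TCF/LEF factors. R-spondins strengthen the signal by keeping Frizzled receptors on the cell surface, whereas SFRP and WIF1 proteins capture Wnts and Dickkopf proteins block LRP5 and LRP6. In the digit tip, Wnt signalling from nail epithelium is known for its part in nail growth and in regrowth of an amputated tip.

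Each value is a log2 signal relative to the median of the controls for that gene. The control median is 0 by construction, so the values hold no absolute level, whether a gene was dim or bright cannot be read, and levels of different genes cannot be set against each other. For the same reason the labelled tissue could not be checked by the level of its markers. A digit tip holds epidermis, nail, dermis, bone, vessels and nerve, and in such a sample fewer cells of a type and less RNA per cell cannot be told apart. A gene is said to have risen or fallen where the limma p-value, adjusted over all genes by the Benjamini-Hochberg method, was at most 0.05. Intervals are 95% intervals of limma.

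As a check of the labels, Ctnnb1 measured -1.10, -0.87 and -1.06 in the cKO arrays, against 0, -0.19 and 0.59 in the control arrays, and fell by 1.14 ± 0.24 on the log2 scale (limma SE, adjusted p = 0.0284). The adjusted p lay between 0.0157 and 0.148 with 1 array left out, and the call ended without cKO replicates 1 or 3 or control replicates 1 or 3. The position of its probes relative to the deletion was not analysed here, so this checks the labels only in part. Replicate 1 of the cKO stood apart in sex-linked genes. The X-inactivation transcript Xist measured -5.84 there, and the Y-linked Ddx3y, Eif2s3y and Uty measured 8.08, 7.62 and 6.84. On the other arrays Xist lay between -0.39 and 0.08 and Ddx3y between -0.22 and 0.01. By these genes that array reads as male and the others as female, so the cKO group was mixed in sex and the control group was not. Results that rest on that array are therefore given with and without it.

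Wnt3, a canonical Wnt ligand whose loss from limb ectoderm disrupts limb outgrowth in mice, was the 1 gene of the 44 that passed the test. Wnt3 measured -1.92, -1.07 and -1.49 in the cKO arrays, against 0, -0.01 and 0.19 in the control arrays. Every cKO array lay below every control array, and the gap between the groups was wider than the spread within either. Wnt3 averaged -1.49 ± 0.43 in cKO digits and 0.06 ± 0.11 in control digits (SD, n = 3 each). It fell by 1.55 ± 0.24 on the log2 scale (interval -2.08 to -1.02), a level 0.341 times that of the controls, with a limma adjusted p of 0.00414. Of all genes tested, 0.697% were called lower and 1.24% higher, against 1 and 0 of the 44, and 1.94% were called in either direction. At an unadjusted limma p under 0.05 there were 3 of the 44. The methods' t-test, an unpaired test per gene without limma's shared variance, called 0 when adjusted over all genes. Of the 44, 31 passed the authors' percentile filter, which acts on these relative values and is therefore no filter on low signal. The authors' deposited table likewise lists Wnt3 as lower, with a signed fold of -2.93 and a corrected p of 0.0219. Its transcript cluster spans positions 103635538 to 103679271 of build mm9 on the plus strand, and the RefSeq table of GRCm38.p6 places the gene on chromosome 11.

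Wnt3 was called with each of the 6 arrays left out in turn. The log2 difference lay between -1.76 and -1.34 and the limma adjusted p between 0.002 and 0.0385. Without cKO replicate 1, which stood apart in sex-linked genes and was lowest in Wnt3, the difference was -1.34 (adjusted p = 0.0194). The methods' t-test, run over all genes, gave Wnt3 an adjusted p of 0.194 with the same difference, and that test called 13 genes in all.

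**Figure D1:**
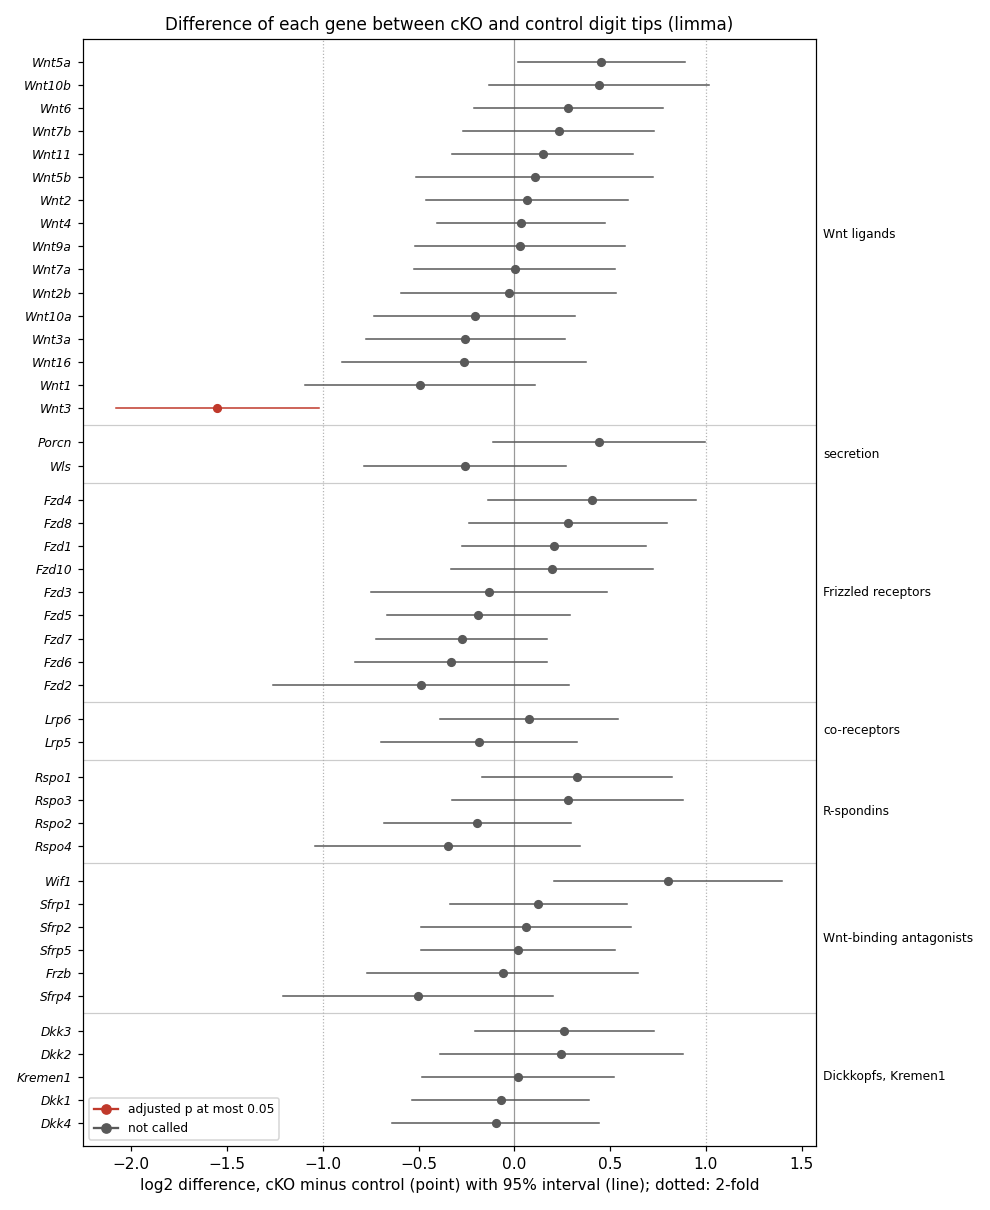
Log2 difference between cKO and control digit tips (horizontal axis, cKO minus control) for each of the 44 genes, grouped by role down the page; points are limma estimates, lines 95% intervals and dotted lines mark a 2-fold change. Wnt3 is the 1 gene called, with an interval of -2.08 to -1.02. Of the other genes 37 have intervals within 2-fold (84.1% of the 44, against 82.8% of all genes).

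The regions just upstream of Wnt3 and of Dkk1 are printed because Wnt3 is the gene that changed and Dkk1, an inhibitor that is also a known Wnt target, held 2 matches to the TCF/LEF motif, against at most 1 in any window of the other matched genes among the 44. Both sequences are the 250 bases before the RefSeq gene start in GRCm38.p6, written in the direction of the gene. The motif searched was CTTTG followed by any pair of A and T, on either strand. Capitals mark its matches, and no matches overlapped in these sequences.
Wnt3, chr11:103773925-103774174, plus strand: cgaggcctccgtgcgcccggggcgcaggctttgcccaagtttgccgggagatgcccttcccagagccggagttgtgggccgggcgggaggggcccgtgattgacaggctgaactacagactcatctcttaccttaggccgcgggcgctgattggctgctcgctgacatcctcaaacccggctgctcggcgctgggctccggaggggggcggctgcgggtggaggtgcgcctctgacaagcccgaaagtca
Dkk1, chr19:30549497-30549746, minus strand: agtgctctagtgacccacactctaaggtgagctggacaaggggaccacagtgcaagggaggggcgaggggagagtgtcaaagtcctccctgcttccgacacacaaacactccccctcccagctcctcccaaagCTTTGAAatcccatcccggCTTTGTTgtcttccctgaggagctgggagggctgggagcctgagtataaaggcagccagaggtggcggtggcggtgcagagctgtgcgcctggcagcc
In Dkk1 the matches begin 117 and 98 bases upstream of the start, and these letters were not found in the window of Wnt3. RefSeq windows were matched for 27 of the 44 genes, and 4 of them (14.8%) held a match, against 16.8% of 27025 genes. A gene was counted if any of its start windows held a match. The other 3 were Fzd7, Wnt11 and Wnt5b, with a match in 1 of 2 windows of Wnt11 and in 1 of 3 windows of Wnt5b. A match is a description of the letters and not evidence of binding.

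Among the other 15 ligands, log2 differences lay between -0.49 and 0.45 and none passed the test. Wnt5a, a mainly non-canonical ligand needed for outgrowth of the limb and digits, measured 0.53, 0.48 and 0.50 in the cKO arrays, against 0, 0.16 and -0.02 in the control arrays. The groups did not overlap and the cKO arrays were close together. The difference was 0.45 ± 0.20 (interval 0.02 to 0.89, unadjusted p = 0.0423, limma adjusted p = 0.376). Over all genes, 12.5% had an unadjusted p under 0.05, against 3 of the 44 (6.82%). Wnt1, best known from the midbrain and also linked to bone mass, measured -0.15, -0.84 and -0.17 in the cKO arrays, against 0, 0.60 and -0.28 in the control arrays. The groups overlapped, and the difference was -0.49 ± 0.28 (limma adjusted p = 0.519).

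Wnt10b, a canonical ligand of hair follicle placodes, measured 0.39, 0.76 and 0.83 in the cKO arrays, against 0.78, -0.13 and 0 in the control arrays. Control replicate 1 lay within the cKO range and the other controls below it. The difference was 0.44 ± 0.27 (adjusted p = 0.553), and lay between 0.27 without control replicate 2 (adjusted p = 0.836) and 0.72 without control replicate 1 (adjusted p = 0.184). Wnt10a, mutated in human disorders of teeth, nails and skin, differed by -0.21 ± 0.24. Wnt7a, the dorsal ectoderm signal of the limb bud, differed by 0.0016 ± 0.24, a sign that turned with arrays centred on their medians (-0.02). Wnt7b, Wnt6 and Wnt3a differed by 0.23, 0.28 and -0.26.

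Wnt4 was the gene of the 44 with more than 1 transcript cluster on the array, and its clusters disagreed. The cluster at positions 136833550 to 136852694 of mm9 differed by 0.44 ± 0.22 and the cluster at 136853887 to 136854153 by -0.38 ± 0.22, with limma adjusted p of 0.483 and 0.565 when clusters were tested singly. Their mean, used here, differed by 0.03 ± 0.20. The array annotation names a RefSeq transcript for the first of these clusters and none for the second. The remaining ligands were Wnt2 (0.07), Wnt2b (-0.03), Wnt5b (0.11), Wnt9a (0.03), Wnt11 (0.15) and Wnt16 (-0.26), the last a regulator of cortical bone.

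Several ligand genes lie next to each other in the genome. Wnt9b, the adjacent protein-coding gene of Wnt3 in the RefSeq table, measured 0.12, 0.11 and 0.08 in the cKO arrays, against 0.41, 0 and -0.15 in the control arrays. Its difference was 0.02 ± 0.22 (adjusted p = 0.982), and the difference between the neighbours was not tested. The other adjacent pairs were Wnt6 with Wnt10a (0.28 and -0.21), Wnt3a with Wnt9a (-0.26 and 0.03) and Wnt10b with Wnt1 (0.44 and -0.49). No member of these 3 pairs was called.

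**Figure D2:**
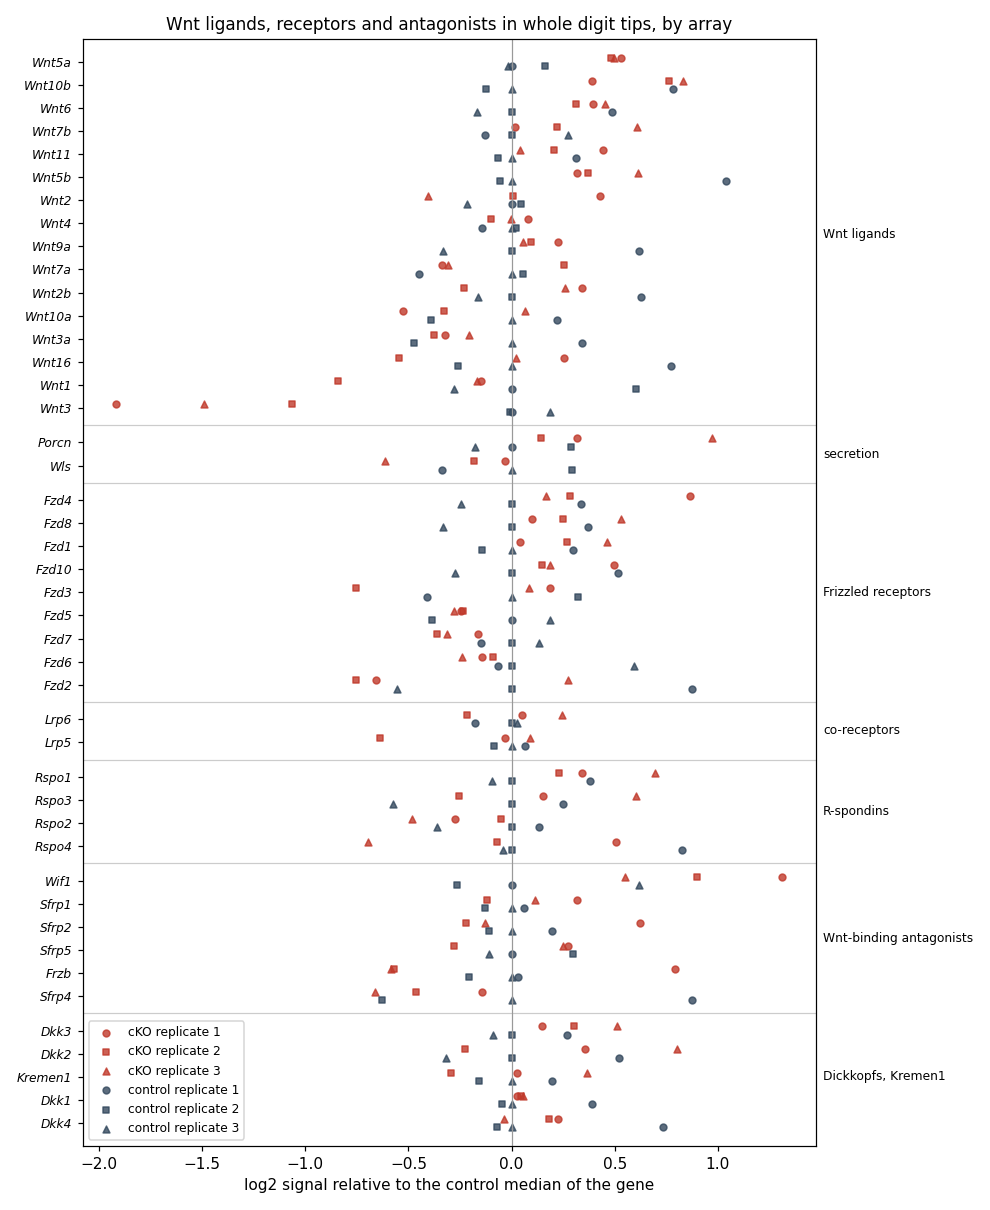
Log2 signal of each array relative to the control median (horizontal axis) for the 44 genes, grouped by role down the page; red marks are cKO arrays and dark marks control arrays, with a shape for each replicate number. The cKO arrays of Wnt3 lie between -1.92 and -1.07, below all control arrays, whereas the groups overlap in 40 genes.

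The 2 genes that prepare Wnts for release did not pass the test. Porcn, the X-linked acyltransferase that adds the lipid to Wnt proteins, measured 0.32, 0.14 and 0.97 in the cKO arrays, against 0, 0.29 and -0.18 in the control arrays. The groups overlapped, with the highest value on cKO replicate 3. The difference was 0.44 ± 0.26 (adjusted p = 0.533), and between 0.19 (without cKO replicate 3) and 0.61 (without cKO replicate 2) with 1 array left out. Wls, the carrier that brings Wnts to the cell surface, measured -0.03, -0.18 and -0.61 in the cKO arrays, against -0.34, 0.29 and 0 in the control arrays. Its difference was -0.26 ± 0.24 (adjusted p = 0.721).

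None of the 9 Frizzled receptors passed, and their differences lay between -0.49 and 0.41 with a median of -0.13. Fzd2 measured -0.66, -0.75 and 0.27 in the cKO arrays, against 0.88, 0 and -0.55 in the control arrays. Both groups were widely spread, and the difference of -0.49 ± 0.36 (adjusted p = 0.635) had the largest standard error of the 44 genes. It was -0.81 without cKO replicate 3, -0.82 without control replicate 3 and -0.10 without control replicate 1. Fzd4, a receptor for Wnts and for Norrin in vessels, measured 0.87, 0.28 and 0.17 in the cKO arrays, against 0.33, 0 and -0.24 in the control arrays. Its difference was 0.41 ± 0.25 (adjusted p = 0.563), and between 0.19 (without cKO replicate 1) and 0.56 (without control replicate 1) with 1 array left out.

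Fzd6, whose loss causes nail dysplasia in humans and claw defects in mice, measured -0.14, -0.09 and -0.24 in the cKO arrays, against -0.07, 0 and 0.59 in the control arrays. Every cKO array was below every control array, but the nearest arrays of the groups were close, and the difference was -0.33 ± 0.23 (adjusted p = 0.615). Fzd7 was similar in layout, at -0.16, -0.36 and -0.31 in the cKO arrays, against -0.15, 0 and 0.13 in the control arrays. It differed by -0.27 ± 0.21 (adjusted p = 0.643). With Wnt3 and Wnt5a these make 4 of 44 genes (9.09%) whose groups did not overlap, against 19.4% of all genes. Every cKO array was below every control array in 3 of the 44 (6.82%, against 9.25% of all genes) and above in 1 (2.27%, against 10.1%). The other receptors were Fzd8 (0.28), Fzd1 (0.21), Fzd10 (0.20), Fzd3 (-0.13) and Fzd5 (-0.19).

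Neither co-receptor passed the test. Lrp5, which also sets bone mass, measured -0.03, -0.64 and 0.09 in the cKO arrays, against 0.06, -0.09 and 0 in the control arrays. Lrp6 measured 0.05, -0.22 and 0.24 in the cKO arrays, against -0.18, 0 and 0.03 in the control arrays. The groups overlapped in both, and cKO replicate 2 was the lowest cKO array in both, as in 39.8% of all genes. The differences were -0.19 ± 0.24 for Lrp5 and 0.08 ± 0.22 for Lrp6, with intervals of -0.70 to 0.33 and -0.39 to 0.54.

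The R-spondins did not pass the test either. Rspo4, mutated in humans born without nails, measured 0.51, -0.07 and -0.70 in the cKO arrays, against 0.83, 0 and -0.04 in the control arrays. The cKO arrays ranged more widely than the controls, and the difference was -0.35 ± 0.32 (adjusted p = 0.714). It was -0.65 without cKO replicate 1, -0.04 without cKO replicate 3 and -0.06 without control replicate 1. Rspo1 measured 0.34, 0.23 and 0.69 in the cKO arrays, against 0.38, 0 and -0.10 in the control arrays, a difference of 0.33 ± 0.23 (adjusted p = 0.615). Rspo2, needed for limb development, and Rspo3 differed by -0.19 ± 0.23 and 0.28 ± 0.28. Control replicate 1 was the highest control and control replicate 3 the lowest in all 4 R-spondins. Over all genes, control replicate 1 was the highest control in 48.4% and control replicate 3 the lowest in 36.6%.

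Of the antagonists that bind Wnts, Wif1 came nearest to the threshold. Wif1 measured 1.31, 0.90 and 0.55 in the cKO arrays, against 0, -0.26 and 0.62 in the control arrays. The lowest cKO array was below the highest control array, so the groups overlapped. The difference of 0.80 ± 0.28 (interval 0.21 to 1.40), a level 1.74 times that of the controls, had an unadjusted p of 0.0124 and a limma adjusted p of 0.216. It was 0.61 without cKO replicate 1 (adjusted p = 0.529) and 1.05 without control replicate 3 (adjusted p = 0.128). Wif1 was called higher, by 1.05, when arrays were weighted (limma adjusted p = 0.0469). The largest weight, 2.22, fell on cKO replicate 1, which was highest in Wif1, while cKO replicate 3, the lowest cKO array in Wif1, had 0.568. Weights without cKO replicate 1 were not tried. In the authors' deposited table Wif1 has a signed fold of 1.74 and is in the fold list but not among the significant clusters.

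The SFRP proteins, secreted decoys that resemble the Wnt-binding domain of Frizzled, were not called. Sfrp4 measured -0.14, -0.46 and -0.66 in the cKO arrays, against 0.87, -0.63 and 0 in the control arrays, with a control spread wider than the cKO spread. Its difference was -0.50 ± 0.33 (adjusted p = 0.58), and it was -0.86 without control replicate 2 (adjusted p = 0.253) and -0.11 without control replicate 1. Frzb, a SFRP of cartilage, measured 0.79, -0.57 and -0.58 in the cKO arrays, against 0.03, -0.21 and 0 in the control arrays. Its difference was -0.06 ± 0.33, and it was -0.52 without cKO replicate 1 (adjusted p = 0.525) and 0.17 without cKO replicate 3. Sfrp2 measured 0.62, -0.22 and -0.13 in the cKO arrays, against 0.20, -0.11 and 0 in the control arrays, with a difference of 0.06 ± 0.25 that was -0.21 without cKO replicate 1 and 0.22 without cKO replicate 2. Sfrp1 and Sfrp5 differed by 0.12 ± 0.21 and 0.02 ± 0.23, and Sfrp5 was at -0.0057 with centred arrays.

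All 6 of these Wnt-binding antagonists had their highest cKO value on replicate 1, the array that stood apart in sex-linked genes. Their median was 0.47 on that array, against -0.25 and -0.01 on cKO replicates 2 and 3. Over all genes, 26.2% had their highest cKO value on replicate 1. The part of sex in these values was not tested.

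The Dickkopf genes and Kremen1, which with Dickkopf removes LRP6 from the cell surface, had differences between -0.10 and 0.26. Dkk3, a divergent member of the family, measured 0.15, 0.30 and 0.51 in the cKO arrays, against 0.27, 0 and -0.09 in the control arrays. It differed by 0.26 ± 0.22 (adjusted p = 0.681). Dkk2 measured 0.36, -0.22 and 0.80 in the cKO arrays, against 0.52, 0 and -0.32 in the control arrays, and differed by 0.24 ± 0.29 (adjusted p = 0.792). Dkk1, whose upstream region with the motif matches is printed above, measured 0.02, 0.05 and 0.06 in the cKO arrays, against 0.39, -0.05 and 0 in the control arrays. The cKO arrays lay within the control range, and the difference was -0.07 ± 0.21 (interval -0.53 to 0.39). Dkk4 differed by -0.10 ± 0.25 and Kremen1 by 0.02 ± 0.23, and Kremen1 was at -0.0060 with centred arrays.

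Taking the 44 genes as a list, 25 had a difference above 0 and 19 below, and 22 and 22 with arrays centred. The median log2 difference was 0.02, against -0.0044 over all genes. Without cKO replicate 1, 20 were above 0 and 24 below, and the median was -0.04, against 0.0010 over all genes. The median size of the difference, without its sign, was 0.22 for the 44 genes and also 0.22 for all genes. Of the 43 genes not called, 37 had an interval within a 2-fold change in either direction (84.1% of the 44, against 82.8% of all genes). The other 6 had an interval that reached it. These 6 were Wnt1, Wnt10b, Fzd2, Sfrp4, Wif1 and Rspo4. A p above the threshold does not show that such a gene was unaltered.

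The arrays of a group did not vary evenly in these genes. Control replicate 1 held the highest control value in 28 of the 44 (63.6%), against 48.4% of all genes, including all 5 of the Dickkopf and Kremen group. In 11 of the 44 genes (25%) that array was at least 0.5 above the control median, against 14.9% of all genes. Its highest value was 1.04 for Wnt5b, where the other controls measured -0.06 and 0. cKO replicate 1 held the highest cKO value in 21 of the 44 (47.7%, against 26.2% of all genes) and cKO replicate 2 in 5 (11.4%, against 28.6%). The cause of this spread was not tested.

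**Figure D3:**
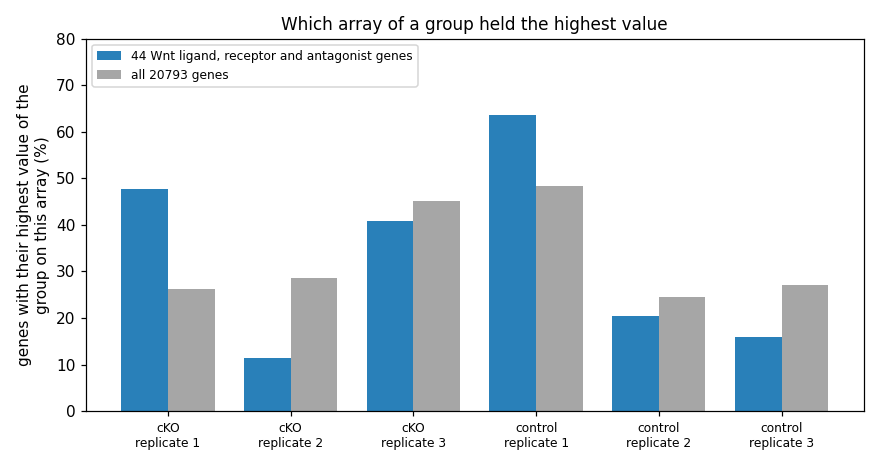
Share of genes (vertical axis, percent) whose highest value within the cKO or the control group lay on a given array (horizontal axis), for the 44 genes (blue) and for all 20793 genes (grey). Control replicate 1 holds the highest control value in 63.6% of the 44 genes and 48.4% of all genes, and cKO replicate 1 the highest cKO value in 47.7% and 26.2%.

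**Figure D4:**
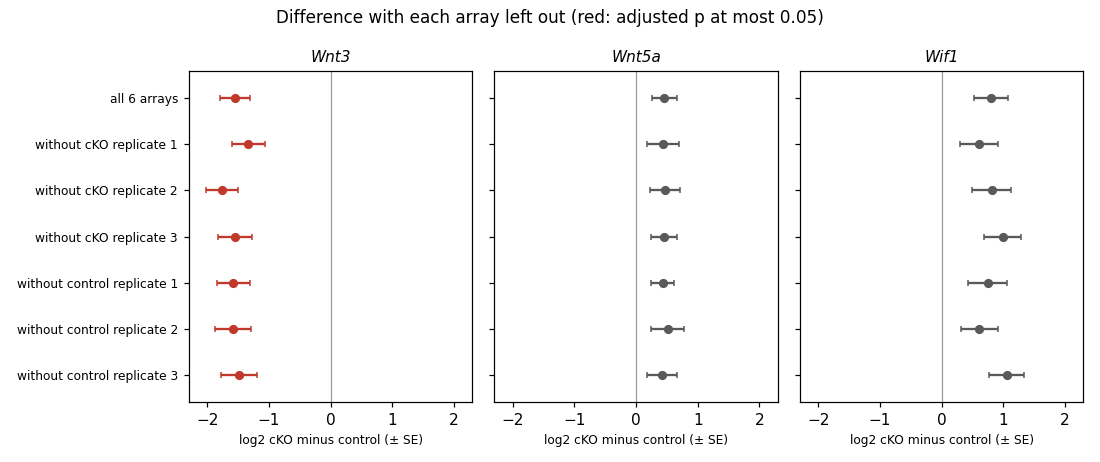
Log2 difference (horizontal axis, cKO minus control, with limma SE) of Wnt3, Wnt5a and Wif1 with all 6 arrays and with each array left out; red marks an adjusted p of at most 0.05. Wnt3 lies between -1.76 and -1.34 and is called each time, while Wnt5a lies between 0.42 and 0.51 and Wif1 between 0.61 and 1.05 without being called.

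Elsewhere in the pathway, a list of feedback and target genes held the calls. Axin2, a scaffold of the complex that degrades beta-catenin and a standard readout of canonical signalling, measured -1.32, -1.02 and -1.23 in the cKO arrays, against 0, -0.32 and 0.09 in the control arrays. It fell by 1.12 ± 0.22 (adjusted p = 0.0163). Nkd1, a Wnt inhibitor, and Tnfrsf19, a receptor of the tumour necrosis factor family, fell by 1.49 ± 0.29 and 1.30 ± 0.21. The other 9 of 12 did not pass. The list did not move in 1 direction: 7 differences were below 0 and 5 above. Tcf7 differed by 0.62 ± 0.22, with every cKO array above every control array (limma unadjusted p = 0.0158, adjusted p = 0.245). With 1 array left out, between 1 and 3 genes of the list were called. Tnfrsf19 was among them each time, whereas Axin2 was not called without cKO replicates 1 or 3 or control replicates 1 or 3 (adjusted p up to 0.0866). Nkd1 was not called without cKO replicates 1 or 3 or control replicate 1 (up to 0.129). Nkd1 measured -2.17, -0.89 and -1.58 in the cKO arrays, against 0.06, 0 and -0.22 in the control arrays. Among the cKO arrays replicate 1 was lowest and replicate 2 highest, as in Wnt3, Axin2, Tnfrsf19, Ctnnb1 and the suprabasal marker Ivl. Other genes called lower did not share this order. The basal marker Krt15 was highest on cKO replicate 3. The sebaceous markers Scd1, Fa2h, Elovl3, Mc5r and Awat1 were highest on cKO replicate 1. Over all genes, 30.9% had their lowest cKO value on replicate 1 and 28.6% their highest on replicate 2, and the share with both was not counted. The list was set with earlier results of these data known, so these calls are not independent evidence of its direction.

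Of 17 further ligands, receptors and LGR proteins, the R-spondin receptors Lgr6 and Lgr4 had the smallest p-values, with differences of -0.63 ± 0.23 and -0.60 ± 0.24 (adjusted p = 0.246 and 0.316). Limma called 0 of the 17, and 3 (17.6%, against 12.5% of all genes) had an unadjusted p under 0.05. The third was Lgr5, at -0.81 ± 0.35 (limma adjusted p = 0.356), with cKO replicate 2 at -1.69 and the other cKO arrays at -0.24 and -0.21. Differences were below 0 in 13 of the 17, with a list median of -0.32. Of 14 further inhibitors at the cell surface 0 were called and 4 (28.6%, against 12.5% of all genes) had an unadjusted p under 0.05. The smallest p-values there were those of Dkkl1, a relative of Dkk3, at -0.73 ± 0.23, and Igfbp4 at 0.61 ± 0.20 (adjusted p = 0.176 and 0.198). Of 15 measured Dishevelled and destruction complex genes 0 were called and 0 had an unadjusted p under 0.05. Axin1 and Btrc had the smallest p-values, with differences of 0.43 ± 0.22 and 0.50 ± 0.33. The methods' t-test over all genes called 0 genes in each of these 3 lists and in that of feedback and target genes.

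**Figure D5:**
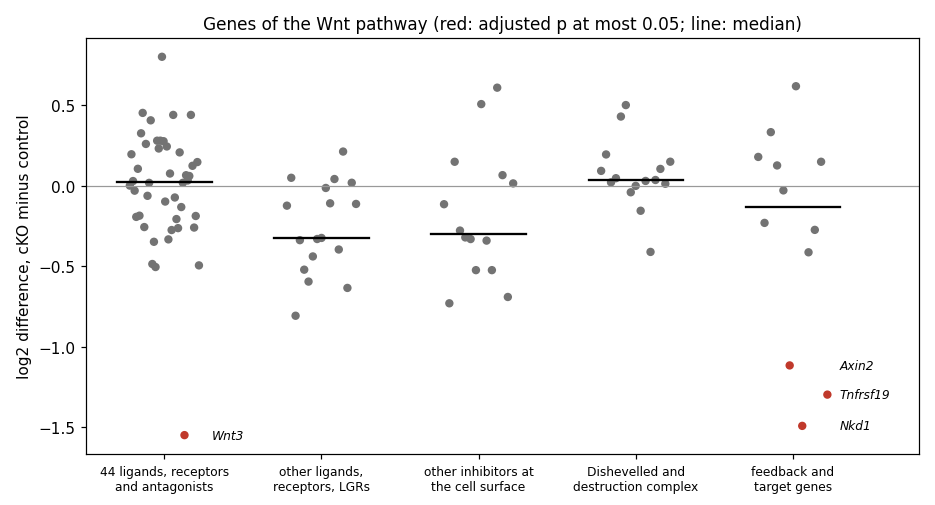
Log2 difference (vertical axis, cKO minus control) of the 44 genes and of 4 lists of other Wnt pathway genes (horizontal axis); each point is a gene, the bar is the median and red marks an adjusted p of at most 0.05. Wnt3 at -1.55 stands with Axin2, Tnfrsf19 and Nkd1 at -1.12 to -1.49 below the other points, and list medians lie between -0.32 and 0.04.

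Markers of the tissues in a digit tip moved as well, and their part in the result for Wnt3 was not tested. In basal epidermis Krt15 fell by 1.45 ± 0.23 and the other 7 of 8 markers did not pass, with list medians per array of -0.20 to -0.07 in the cKO and 0 to 0.02 in the control. In suprabasal epidermis Ivl fell by 1.68 ± 0.31 and 5 of 6 did not pass. The call of Ivl ended without cKO replicate 3 (adjusted p = 0.0725) or control replicates 1 or 3 (0.0549 in both). Of 9 nail and hair markers 0 passed and 3 had an unadjusted p under 0.05, with medians per array of -0.69 to 0.12 in the cKO and 0 to 0.21 in the control. The smallest p-values there were those of the nail keratin Krt84 at 0.88 ± 0.23 and the hair keratin Krt35 at -0.93 ± 0.31 (adjusted p = 0.0879 and 0.205).

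Sebaceous markers fell in 5 of 8 (Scd1, Fa2h, Elovl3, Mc5r and Awat1), with medians of -2.41 to -1.59 in the cKO and -0.59 to 0.04 in the control. Osteoblast markers rose in 5 of 9 (Ibsp, Alpl, Sp7, Spp1 and Ifitm5), with a list median of 1.41. Fibroblast markers rose in 3 of 8, all collagen genes (Col1a1, Col1a2 and Col3a1), with a list median of 0.51. The other 5 did not pass, and of these Dcn and Twist2 lay below 0 (-0.37 and -0.28). T cell markers rose in 3 of 6 (Cd3d, Cd3g and Il2rb), with a list median of 0.92. The other 3, Cd8a (0.56), Cd3e (0.32) and Cd4 (-0.17), did not pass. Among macrophage and adipocyte markers Lyz2 and Fabp4 rose, each 1 of 6, while 1 of 8 cartilage markers, Chad, fell. With 1 array left out the counts were 3 to 5 sebaceous, 4 to 7 osteoblast, 2 to 3 fibroblast and 3 T cell markers. For cartilage and macrophage markers the counts were 0 to 2 each, and for adipocyte markers 0 to 1. None of the 8 endothelial (median 0.69, 6 with an unadjusted p under 0.05), 8 sweat gland (2) and 7 muscle markers (0) was called by limma, and the methods' t-test called 0 in each marker list given here. The smallest p-values were those of Vwf and Pecam1 in endothelium (0.91 and 0.78), Krt7 and Slc12a2 in sweat gland (-0.77 and -0.54) and Myh4 and Tnnt3 in muscle (-0.35 and -0.32).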

How the data were processed

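RNA of whole digit tips was hybridised to Affymetrix MoGene 1.0 ST arrays. Per the file headers the annotation is na31 on mm9, and per the deposited methods sheet PLIER16 with quantile normalisation gave the authors' log2 values, which were then set against the control median of each cluster. The labels' protocols name a labelling kit for 3′ arrays, and which kit was used is not settled here. The authors' deposited fold score, corrected p-value and p-value come from an unpaired t-test (header) or ANOVA (methods sheet), after filters on the bottom 20th percentile and on 1.5-fold change. Rebuilt from the values, the percentile filter together with the 1.5-fold minimum gave all 1755 clusters of the authors' fold list. Of the 44 genes, 31 passed the percentile filter, which was not used in the main test.

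The series' value table was analysed; it differed from the workbook by at most 5e-05. Of 28853 clusters, 22971 carried 1 gene, and clusters of a gene were averaged to 20793 genes, with symbols updated through a RefSeq table (GRCm38.p6; 21924 clusters matched). The test was limma (version 3.58.1 under R 4.3.3), a linear fit per gene with moderated variances, cKO minus control, with Benjamini-Hochberg adjustment over all genes and 95% intervals from the same fit. The fit was checked on simulated data. The number of arrays limits the precision.

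The members and lists were chosen with earlier results of these data known. By the rule for named genes, values of every array are given for genes with an unadjusted p under 0.05 and for the 2 of largest difference in each role group, and from other lists the called genes or, with none called, the 2 of smallest p. Wnt10b, Fzd6, Fzd7, Frzb, Sfrp2, Dkk1, Wnt9b, Tcf7, Lgr5 and the sex-linked genes fall outside it and were added after their values were seen. Dvl2, Gsk3a, Dsg1a, Flg, Krt85, Bglap2, Trdc and Kdm5d of the lists had no cluster of their own. The result of 1 further marker list is not reported here. Alternatives were values from the workbook, arrays centred on their medians, a block for the replicate number, array weights, robust variances, the methods' t-test, single clusters, the authors' percentile filter, a minimum fold, and each array left out in turn.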

Additional observations from a re-analysis of the deposited data

How the results depend on the processing

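The values carry no absolute level, so limits set by signal over background cannot be read from them. The number of these 44 genes called lower was 1 with each array left out and under the alternatives tried, except the methods' t-test over all genes (0). The number called higher was 0, except with array weights (1, Wif1). Over all genes, 258 were called higher and 145 lower, against 523 and 305 with array weights, 10 and 3 with the methods' t-test, and 48 lower after the authors' percentile filter. With 1 array left out, 133 to 261 were higher and 59 to 165 lower. The lowest counts came without cKO replicate 3, and 75 and 81 were lower without control replicates 1 and 3. Whether same-numbered arrays share more than a number is not settled here. Their deviations from the group means correlated at 0.042, 0.138 and -0.085. cKO replicates 1 and 2 correlated best with the control of the same number, and cKO replicate 3 with control replicate 1 (0.138). The replicate number as a block gave 357 higher and 218 lower. It changed no call among the 44 genes, with a limma adjusted p of 0.000763 for Wnt3. The cause of these shifts was not tested. The authors' percentile filter, rebuilt on values relative to the controls, left 13 of the 44 genes without a value, and also Ctnnb1, Axin2, Nkd1, Krt15 and Ivl, while 309 genes were called higher.

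In 18 of the 44 genes, none of them called, the sign of the log2 difference turned under some alternative. With array weights it was 0.18 for Wnt2b, -0.17 for Wnt7a, 0.087 for Wnt16, 0.36 for Frzb, 0.020 for Dkk1, 0.13 for Dkk4 and 0.11 for Rspo4. With centred arrays it was -0.023 for Wnt7a, -0.0057 for Sfrp5 and -0.0060 for Kremen1, and the second cluster of Wnt4 alone gave -0.38. With 1 array left out the range was -0.14 to 0.27 for Wnt2, -0.19 to 0.21 for Wnt2b, -0.017 to 0.079 for Wnt4, -0.086 to 0.46 for Wnt5b and -0.19 to 0.10 for Wnt7a. It was -0.18 to 0.29 for Wnt9a, -0.48 to 0.038 for Wnt16, -0.32 to 0.16 for Fzd3, -0.33 to 0.036 for Lrp5 and -0.032 to 0.20 for Lrp6. It was -0.21 to 0.22 for Sfrp2, -0.078 to 0.20 for Sfrp5, -0.52 to 0.17 for Frzb, -0.15 to 0.066 for Dkk1, -0.0007 to 0.51 for Dkk2, -0.24 to 0.16 for Dkk4 and -0.15 to 0.18 for Kremen1.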
